A study of Homo sapiens with 4 samples.

Results

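Collagen chains are the alpha chains that wind together into the helical trimers of the extracellular matrix, and each chain has a gene of its own. They were taken here as every row of the deposited count table whose gene symbol has the form COL, a number, A and a number, a rule that uses no measured value. That rule found 50 of the table's 65988 rows, with 44 different symbols. Reads were present for 43 chains, 39 had enough reads to be tested, and 7 rows were at 0 in all 4 libraries and count as not measured. RNA was sequenced from cultures of SKOV3, a human cell line of ovarian carcinoma that carries extra copies of ERBB2. The cisplatin-resistant cells (CR, 2 libraries) came from the wild-type cells (WT, 2 libraries) through 6 cycles of drug over 5 months, each a 4 h pulse of cisplatin, at a concentration raised over the cycles, and then 3 weeks without it. Cisplatin is a platinum compound that cross-links DNA. Both kinds of cells were harvested in log growth with no drug present, so the comparison is between the resistant state and the parental line, and not a response to the drug itself. A line kept in culture for as long without cisplatin was not analysed here, so the effects of selection and of passage cannot be told apart.

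Collagens differ in what their trimers build. Fibrillar chains, such as those of type I and type V, form the banded fibres of connective tissue, and fibril-associated chains sit on the surface of those fibres. Type IV chains form the sheet of the basement membrane under epithelia, which in the ovary lies beneath the surface epithelium, and type VI chains form beaded microfibrils next to it. Transmembrane collagens stay anchored in the cell surface, and type VII makes the fibrils that tie a basement membrane to the tissue below. A trimer can hold 1 kind of chain or several, so the chains of a type are often made together.

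The libraries held 65259794 and 79592903 counts in CR and 43658695 and 53502349 counts in WT, and 1 CPM (a share of the library's counts, on library sizes scaled by edgeR's TMM method) stood for between 42.6 and 83.2 counts. Replicates of a group varied by 13% (biological coefficient of variation). Of 18602 genes tested with edgeR's quasi-likelihood test, 45.3% passed an adjusted p of 0.05 (Benjamini-Hochberg over all genes tested), 22.1% higher and 23.2% lower in CR. The median log2 change (CR over WT) over all tested genes was 0.003. KRT8, KRT18 and KRT19, keratins of simple epithelia, were present in every library. KRT7, another such keratin, had 3.27 and 3.14 CPM in CR, against 332 and 399 CPM in WT (log2 change -6.83, adjusted p = 8.97e-10). ERBB2 had 2840 and 2073 CPM in CR and 5246 and 5767 CPM in WT. Of 11 epithelial and ovarian carcinoma markers, 8 were lower and 1 higher in CR, among them the adherens junction protein CDH1, at 0.240 and 0.276 CPM in CR and 12.1 and 11.8 CPM in WT.

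Collagen RNA was lower in CR. Summed over the 43 chains, it came to 2608 and 2689 CPM in the CR libraries and 4847 and 6106 CPM in the WT libraries, 2.07 times more in WT on average. Of the 39 tested chains, 18 were lower in CR, 10 were higher and 11 did not pass the test. That is 71.8% of the tested chains, against the background of 45.3% of all tested genes, and by direction 46.2% lower and 25.6% higher, against 23.2% and 22.1% of all genes. The median log2 change was -0.82 over the tested chains and the median size of change, whatever its direction, was 1.37, against 0.51 over all tested genes. At least a 2-fold change was reached by 17 lower and 8 higher chains among the 28 called, or 64.1% of the tested chains against 20.6% of all tested genes. The CR and WT libraries did not overlap for 32 chains, 12 with CR above and 20 with CR below, where 73.6% of all tested genes also had no overlap. These are counts from RNA of whole cultures, in which fewer cells making a chain and less of its RNA per cell cannot be told apart.

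**Figure D1:**
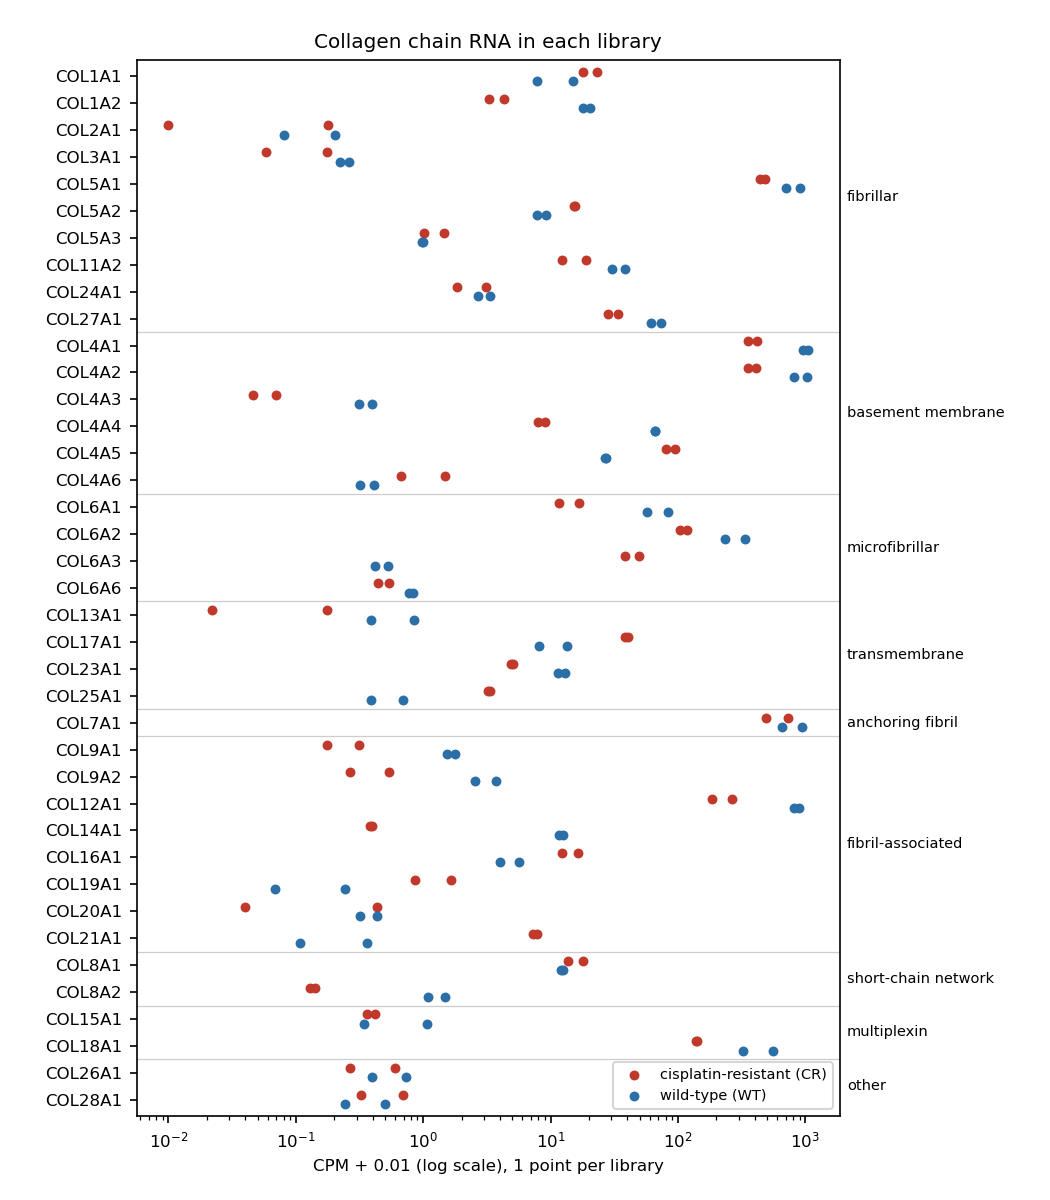
Level of each of the 39 tested collagen chains in CPM plus 0.01 (log axis), 1 point per library, with CR in red above WT in blue in each row and chains grouped by the kind of trimer they build. COL6A3 and COL21A1 stand far to the right in CR, COL14A1 far to the left, and the abundant COL4A1, COL4A2, COL5A1 and COL12A1 are all lower in CR.

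Basement membrane chains summed to 934 and 801 CPM in CR and 1856 and 2177 CPM in WT. All 6 type IV chains passed the test, but not in 1 direction: COL4A1, COL4A2, COL4A3 and COL4A4 were lower in CR, and COL4A5 and COL4A6 were higher. These genes lie head to head in pairs, each pair transcribed outward from a shared promoter region, and in every pair both genes changed the same way. COL4A1 and COL4A2, on chromosome 13, make the type IV trimer found in nearly all basement membranes. COL4A3 and COL4A4, on chromosome 2, join COL4A5 in the trimer of the kidney's filter, and COL4A5 and COL4A6, on chromosome X, form that of smooth muscle and some epithelia.

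The promoters of these pairs are shown because the direction of change followed the pair. Each is a RefSeq window of 300 bases (GRCh38.p14), from 250 before to 50 after the start of the gene, read 5′ to 3′ on the gene's own strand. Capitals mark the letters GGGCGG, known as the GC box, and CCAAT, known as the CCAAT box, on either strand. The marked boxes do not overlap each other. The windows are COL4A1 at chr13:110307108-110307407 (minus strand), COL4A2 at chr13:110307034-110307333 (plus), COL4A4 at chr2:227164156-227164455 (minus), COL4A3 at chr2:227164374-227164673 (plus), COL4A5 at chrX:108439588-108439887 (plus) and COL4A6 at chrX:108439409-108439708 (minus).
COL4A1 (lower in CR): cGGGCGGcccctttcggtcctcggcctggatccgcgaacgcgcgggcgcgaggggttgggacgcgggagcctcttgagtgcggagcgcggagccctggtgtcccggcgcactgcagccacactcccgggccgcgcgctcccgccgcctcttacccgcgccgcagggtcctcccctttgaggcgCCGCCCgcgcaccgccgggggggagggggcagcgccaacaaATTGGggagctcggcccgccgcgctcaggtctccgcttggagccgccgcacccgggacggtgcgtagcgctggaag
COL4A2 (lower in CR): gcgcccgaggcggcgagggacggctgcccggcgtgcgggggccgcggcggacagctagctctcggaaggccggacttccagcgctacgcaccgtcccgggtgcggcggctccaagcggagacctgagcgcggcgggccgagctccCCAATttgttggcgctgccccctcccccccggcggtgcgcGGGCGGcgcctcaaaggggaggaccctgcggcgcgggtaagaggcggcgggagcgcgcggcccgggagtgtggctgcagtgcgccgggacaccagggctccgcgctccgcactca
COL4A4 (lower in CR): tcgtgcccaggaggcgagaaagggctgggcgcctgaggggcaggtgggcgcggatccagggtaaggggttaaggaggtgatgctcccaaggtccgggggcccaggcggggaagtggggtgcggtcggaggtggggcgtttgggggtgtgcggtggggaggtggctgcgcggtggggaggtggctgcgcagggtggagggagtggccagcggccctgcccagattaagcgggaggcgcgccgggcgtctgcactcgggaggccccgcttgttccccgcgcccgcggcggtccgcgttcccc
COL4A3 (lower in CR): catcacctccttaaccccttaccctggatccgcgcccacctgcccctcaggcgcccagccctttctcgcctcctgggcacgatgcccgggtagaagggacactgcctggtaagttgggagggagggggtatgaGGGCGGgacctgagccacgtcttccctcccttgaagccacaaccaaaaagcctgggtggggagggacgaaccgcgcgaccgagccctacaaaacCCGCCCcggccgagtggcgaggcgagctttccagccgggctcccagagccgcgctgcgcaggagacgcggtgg
COL4A5 (higher in CR): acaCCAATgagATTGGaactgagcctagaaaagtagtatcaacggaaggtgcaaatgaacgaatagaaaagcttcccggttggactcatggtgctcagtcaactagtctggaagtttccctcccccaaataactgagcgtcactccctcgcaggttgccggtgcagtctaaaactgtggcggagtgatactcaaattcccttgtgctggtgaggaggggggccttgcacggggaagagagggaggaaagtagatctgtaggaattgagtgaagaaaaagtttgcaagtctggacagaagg
COL4A6 (higher in CR): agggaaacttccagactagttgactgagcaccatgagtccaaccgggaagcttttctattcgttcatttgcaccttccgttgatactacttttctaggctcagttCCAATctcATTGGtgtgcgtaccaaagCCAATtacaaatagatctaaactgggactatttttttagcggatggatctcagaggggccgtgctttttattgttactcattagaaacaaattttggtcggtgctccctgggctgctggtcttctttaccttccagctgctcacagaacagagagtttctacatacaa

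The starts of COL4A1 and COL4A2 are 127 bases apart and their windows share 226 bases, so a box in the shared stretch is read in both. Each of those windows holds 45 CpG dinucleotides, and GC makes up 76.7% and 77.7% of them. COL4A4 and COL4A3 start 419 bases apart, share 82 bases, and hold 29 and 24 CpG. COL4A5 and COL4A6 start 380 bases apart, and their windows share 121 bases and hold 8 and 7 CpG, with a GC share of 49.3% and 43.7%. The printed window of COL4A5 has 2 CCAAT boxes and that of COL4A6 has 3, with no GC box in either. A second RefSeq window of COL4A6, at chrX:108438373-108438672, holds 5 CpG, 1 GC box and no CCAAT box. The window of COL4A1 has 2 GC boxes and 1 CCAAT box. Over all 35116 RefSeq promoters of this length, 45.0% hold a GC box and 34.6% a CCAAT box, so either box is common. COL4A4 holds neither.

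COL4A1 had 418 and 354 CPM in CR, against 950 and 1049 CPM in WT (log2 change -1.37 ± 0.12, SE, adjusted p = 5.59e-06). COL4A2 had 412 and 356 CPM in CR, against 812 and 1034 CPM in WT (-1.27 ± 0.14, adjusted p = 2.74e-05). Both CR libraries lay well under both WT libraries for these partners, and they fell by nearly the same amount. Their levels per kb of exon stayed close to each other, with COL4A1 over COL4A2 at 1.33 and 1.30 in CR and at 1.53 and 1.33 in WT. The pair overlaps at its 5′ ends in GENCODE 29, and 16.6% of the exon bases of COL4A2 lie inside other genes, COL4A1 among them.

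COL4A4 had 9.0 and 7.97 CPM in CR, against 65.4 and 65.9 CPM in WT, the largest fitted fall among the type IV chains (-2.95 ± 0.14, adjusted p = 3.54e-08). Replicates of each group were close together and far from the other group. Its neighbour COL4A3, which begins 111 bases away in GENCODE 29, was barely detected, with 4 and 3 counts in CR and 13 and 20 counts in WT (-2.83 ± 0.83, adjusted p = 0.0159). That call did not pass with DESeq2 (adjusted p = 0.0507) or without CR replicate 1, CR replicate 2 or WT replicate 2 (0.126, 0.185 and 0.0913). In addition 97.3% of the exon bases of COL4A3 lie inside an antisense gene, AC097662.1, which had 30 and 48 counts in CR and 15 and 11 counts in WT and did not pass the test.

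COL4A5, the chain mutated in X-linked Alport syndrome, had 94.8 and 81.0 CPM in CR, against 27.1 and 26.8 CPM in WT (1.71 ± 0.13, adjusted p = 1.46e-06). COL4A6 was far less abundant, with 0.660 and 1.47 CPM in CR, against 0.399 and 0.312 CPM in WT (1.59 ± 0.53, adjusted p = 0.0288). CR lay above WT for both partners, although the COL4A6 libraries of CR differed from each other more than those of WT. COL4A6 did not pass with DESeq2 (adjusted p = 0.052), with limma-voom (0.0556) or without CR replicate 2 (0.413). Per kb of exon, COL4A5 exceeded COL4A6 by 112 and 43.2 times in CR and by 53.1 and 67.2 times in WT, so the groups overlapped in this ratio.

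Type VI microfibrils need COL6A1, COL6A2 and a longer chain, most often COL6A3, and these moved apart. COL6A3, on chromosome 2 (237324003 to 237414375, minus strand), had 49.1 and 38.1 CPM in CR, against 0.516 and 0.409 CPM in WT, which is 94.5-fold higher in CR (6.56 ± 0.23, adjusted p = 5.71e-09). COL6A1, on chromosome 21, had 11.7 and 16.6 CPM in CR, against 56.9 and 82.9 CPM in WT (-2.31 ± 0.21, adjusted p = 5.79e-06). COL6A2, which lies 93046 bases downstream of it on the same strand, had 104 and 117 CPM in CR, against 233 and 334 CPM in WT (-1.36 ± 0.16, adjusted p = 4.65e-05). All 3 chains separated the groups, COL6A3 upward and its partners downward. Per kb of exon, COL6A3 over COL6A1 came to 1.14 and 0.626 in CR and to 0.00247 and 0.00134 in WT, so in CR the longer chain was near the level of COL6A1 and in WT it was scarce. COL6A1 over COL6A2 was 0.113 and 0.143 in CR and 0.246 and 0.250 in WT. COL6A6, which can take the place of COL6A3, stayed low at 0.525 and 0.433 CPM in CR and 0.822 and 0.759 CPM in WT and did not pass the test (-0.72 ± 0.47), and COL6A5, another such chain, had 1 and 0 counts in CR and 0 and 1 counts in WT.

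The promoter of COL6A3 is set beside that of COL6A2 because these partners changed in opposite directions. No RefSeq window was found for COL6A1, the partner with the larger fall. The windows are chr2:237414115-237414414 (minus strand) and chr21:46097862-46098161 (plus strand), with the same marks as above.
COL6A3 (higher in CR): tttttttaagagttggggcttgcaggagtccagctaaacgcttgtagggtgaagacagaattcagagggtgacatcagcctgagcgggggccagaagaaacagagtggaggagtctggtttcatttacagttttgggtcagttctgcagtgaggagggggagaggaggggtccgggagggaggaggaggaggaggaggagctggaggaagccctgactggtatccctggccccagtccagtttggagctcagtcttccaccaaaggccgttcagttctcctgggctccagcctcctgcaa
COL6A2 (lower in CR): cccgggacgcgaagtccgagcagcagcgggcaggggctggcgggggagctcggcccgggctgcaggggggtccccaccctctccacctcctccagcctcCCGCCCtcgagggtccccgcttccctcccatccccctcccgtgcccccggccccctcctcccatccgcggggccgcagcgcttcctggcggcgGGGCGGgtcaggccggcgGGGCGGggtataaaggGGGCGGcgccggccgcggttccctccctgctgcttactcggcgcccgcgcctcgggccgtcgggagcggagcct
The window of COL6A3 holds 4 CpG and neither box. That of COL6A2 holds 36 CpG, 4 GC boxes and 1 TATAAA, letters found in 11.5% of all RefSeq promoters of this length.

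**Figure D2:**
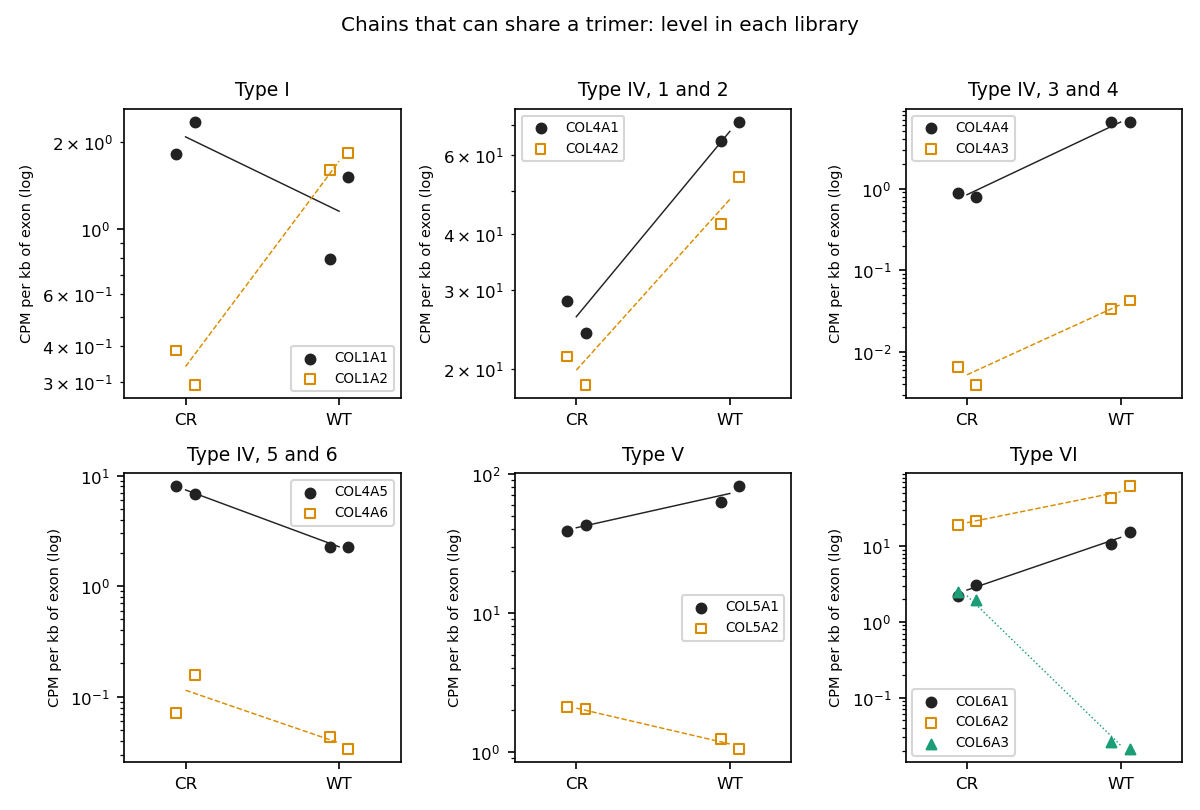
Level of chains that can share a trimer, in CPM per kb of exon (log axes, scaled separately), 1 symbol per library with CR left of WT and lines joining the group means. Both genes change in the same direction in all 3 head-to-head pairs of type IV, though the calls of COL4A3 and COL4A6 did not hold in all alternative fits. COL4A5, which can share a trimer with COL4A3 and COL4A4, changes in the opposite direction to them. Partners change in opposite directions within types I and V, and in type VI COL6A3 rises while COL6A1 and COL6A2 both fall.

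Fibrillar chains summed to 518 and 579 CPM in CR and 839 and 1071 CPM in WT, 1.74 times more in WT on average. Of 10 tested, 4 were lower, 2 higher and 4 did not pass the test. The partners of both classical heterotrimers, type I and type V, went opposite ways. COL1A1, on chromosome 17 (50183289 to 50201632), had 17.8 and 22.9 CPM in CR, against 7.77 and 14.9 CPM in WT (0.84 ± 0.25, adjusted p = 0.0188). COL1A2, on chromosome 7 (94394561 to 94431232), had 4.29 and 3.27 CPM in CR, against 17.8 and 20.4 CPM in WT (-2.34 ± 0.19, adjusted p = 2.55e-06). The CR libraries lay above WT for COL1A1 and below it for COL1A2. Per kb of exon, COL1A1 over COL1A2 was 4.72 and 7.96 in CR and 0.496 and 0.829 in WT, so COL1A1 was the more abundant partner in CR and COL1A2 in WT. COL1A1 did not pass the test without WT replicate 1 (log2 change 0.46, adjusted p = 0.102) and changed by 1.4 without WT replicate 2.

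COL5A1, the main chain of type V, which limits the width of type I fibrils, had 437 and 480 CPM in CR, against 707 and 912 CPM in WT (-0.82 ± 0.13, adjusted p = 5.31e-04). COL5A2, its partner on chromosome 2, had 15.6 and 15.1 CPM in CR, against 9.20 and 7.77 CPM in WT (0.86 ± 0.16, adjusted p = 0.0014). Neither pair of groups overlapped, and COL5A1 stayed the more abundant of the 2 in all libraries, by 18.7 and 21.1 times per kb of exon in CR and by 51.2 and 78.2 times in WT. COL5A3, a rarer partner, had 1.0 and 1.44 CPM in CR and 0.962 and 0.993 CPM in WT and did not pass the test.

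COL11A2, a chain of cartilage fibrils, had 12.3 and 18.8 CPM in CR, against 30.1 and 38.5 CPM in WT (-1.14 ± 0.20, adjusted p = 8.52e-04). COL27A1, a fibrillar chain of developing cartilage, had 28.2 and 34.1 CPM in CR, against 61.6 and 73.2 CPM in WT (-1.11 ± 0.14, adjusted p = 9.01e-05). These 2 chains fell by about the same factor, with no overlap of the groups. The cartilage chain COL11A1 had 0 and 0 counts in CR and 3 and 3 counts in WT, at least 3.19-fold lower in CR when 3 counts over the group are taken as the floor, and it was too low to be tested. COL2A1, the main fibrillar chain of cartilage, reached at most 14 counts in a library. COL3A1, the chain of reticular fibres made by fibroblasts, had 11 and 4 counts in CR and 9 and 13 counts in WT. COL24A1 had 1.83 and 3.10 CPM in CR and 3.33 and 2.69 CPM in WT. None of COL2A1, COL3A1 and COL24A1 passed the test.

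**Figure D3:**
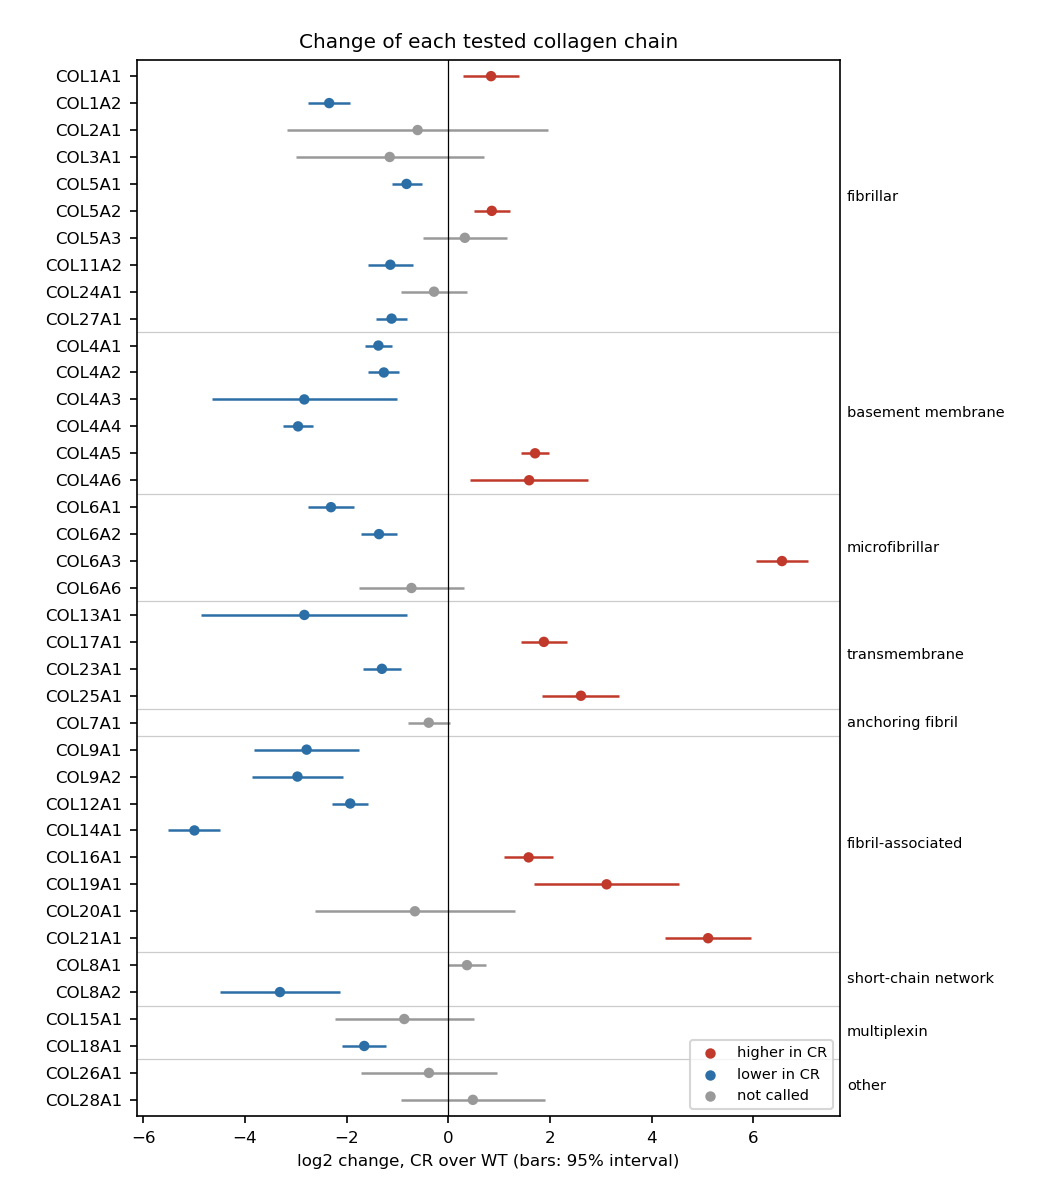
Log2 change of each tested chain, CR over WT, with its 95% interval from the edgeR fit. Of the 39 chains, 10 lie to the right of 0 (red, higher in CR), 18 to the left (blue, lower in CR), and 11 did not pass the test (grey).

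The summed level differed the most, 3.52 times, for fibril-associated chains, at 288 and 211 CPM in CR and 843 and 911 CPM in WT. Of 8 tested, 4 were lower, 3 higher and 1 did not pass the test. Most of that sum was 1 chain, COL12A1, which binds type I fibrils. COL12A1, on chromosome 6 (75084326 to 75206051), had 265 and 184 CPM in CR, against 821 and 888 CPM in WT (-1.93 ± 0.16, adjusted p = 3.11e-06). Its close relative COL14A1 had 0.375 and 0.385 CPM in CR, against 12.6 and 11.7 CPM in WT, 31.8-fold lower (-4.99 ± 0.23, adjusted p = 3.45e-08). COL14A1 had the largest fall of any tested chain, and its replicates were almost equal within each group. Its nearest tested protein-coding neighbour, DEPTOR, an inhibitor of the kinase mTOR, changed by -5.20 and the neighbour on the other side, MRPL13, by 0.66.

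COL9A1 and COL9A2 belong to type IX, which coats the fibrils of cartilage. COL9A1 had 0.165 and 0.301 CPM in CR, against 1.76 and 1.52 CPM in WT (-2.78 ± 0.47, adjusted p = 6.45e-04). COL9A2 had 0.255 and 0.529 CPM in CR, against 2.54 and 3.70 CPM in WT (-2.96 ± 0.40, adjusted p = 1.49e-04), and the log2 change was -3.60 without CR replicate 2. Both fell to low levels, and COL9A3, the third chain of type IX, was at 6 and 2 counts in CR and 3 and 3 counts in WT, too low to be tested. COL9A1 lies next to COL19A1 on chromosome 6, 5084 bases away on the opposite strand, and this pair moved in opposite directions.

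COL21A1, found in vessel walls, had the second largest rise, 34.5-fold. COL21A1, on chromosome 6 (56056590 to 56394094), had 7.80 and 7.21 CPM in CR, against 0.352 and 0.0974 CPM in WT (5.11 ± 0.39, adjusted p = 1.51e-06). COL19A1, a chain of basement membrane zones and synapses, had 1.64 and 0.854 CPM in CR, against 0.235 and 0.0584 CPM in WT (3.11 ± 0.65, adjusted p = 0.00255). The WT libraries held few reads of either, 15 and 5 counts for COL21A1 and 10 and 3 counts for COL19A1. The log2 change of COL21A1 was 6.25 without WT replicate 1 and 4.41 without WT replicate 2, and that of COL19A1 was 4.37 and 2.39 without the same libraries. COL16A1, which binds to cells and matrix through integrins, had 12.3 and 16.5 CPM in CR, against 3.99 and 5.63 CPM in WT (1.58 ± 0.22, adjusted p = 1.54e-04), with 21.4% of its exon bases inside other genes. COL20A1 did not pass the test, at 2 and 35 counts in CR and 18 and 16 counts in WT, and COL22A1, a chain of muscle-tendon junctions, had at most 8 counts in a library and was not tested.

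Transmembrane collagens had the larger sum in CR, at 47.0 and 48.7 CPM in CR and 20.2 and 27.8 CPM in WT, with 2 of the 4 chains higher and 2 lower. COL17A1, a component of the hemidesmosomes that hold epithelial cells to the basement membrane, had 38.6 and 40.6 CPM in CR, against 8.10 and 13.3 CPM in WT (1.88 ± 0.20, adjusted p = 2.68e-05). COL25A1, best known from neurons, had 3.24 and 3.32 CPM in CR, against 0.376 and 0.681 CPM in WT (2.61 ± 0.34, adjusted p = 1.16e-04). Both lay above WT in both CR libraries. The remaining transmembrane chains, COL23A1 and COL13A1, were lower in CR. COL23A1 had 5.03 and 4.85 CPM in CR, against 11.4 and 13 CPM in WT (-1.30 ± 0.17, adjusted p = 1.23e-04). COL13A1, a chain of the neuromuscular junction, had only 11 and 1 counts in CR and 16 and 43 counts in WT (-2.83 ± 0.92, adjusted p = 0.0269), and did not pass the test without CR replicate 2 (-1.86, adjusted p = 0.147) or WT replicate 2 (-2.12, adjusted p = 0.130). Without CR replicate 1 the log2 change of COL13A1 was -5.43.

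COL7A1, the chain of anchoring fibrils, was among the most abundant chains in both groups. COL7A1 had 495 and 724 CPM in CR and 657 and 933 CPM in WT, so the groups overlapped and the change did not pass the test (-0.38, 95% interval -0.80 to 0.03, adjusted p = 0.123). That depended on the fit: it passed with no filter on low counts (-0.36, adjusted p = 0.00545) but not with DESeq2 (-0.38, adjusted p = 0.452). The log2 change was -0.68 without CR replicate 2 and -0.60 without WT replicate 1. It was -0.13 without CR replicate 1 and -0.10 without WT replicate 2. COL18A1, the multiplexin whose cleaved end is endostatin, had 142 and 138 CPM in CR, against 325 and 554 CPM in WT (-1.65 ± 0.20, adjusted p = 5.79e-05). Other genes, SLC19A1 among them, cover 55.0% of its exon bases, and SLC19A1 did not pass the test (-0.03 ± 0.14). The other multiplexin, COL15A1, had 0.405 and 0.349 CPM in CR and 1.06 and 0.331 CPM in WT and did not pass, although it did without WT replicate 2 (-1.48, adjusted p = 0.0428).

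COL8A2 and COL8A1 build the hexagonal lattice under corneal and vascular endothelium. COL8A2 had 0.120 and 0.132 CPM in CR, against 1.48 and 1.07 CPM in WT (-3.31 ± 0.54, adjusted p = 5.03e-04). COL8A1 had 17.9 and 13.7 CPM in CR and 12.5 and 12 CPM in WT and did not pass the test (0.37 ± 0.17, adjusted p = 0.0994), though it did without CR replicate 2 (0.56, adjusted p = 0.0121). COL8A1 stayed the more abundant of the 2, by 74.2 and 51.5 times per kb of exon in CR and by 4.19 and 5.57 times in WT. COL26A1 and COL28A1 were under 1 CPM in every library and did not pass the test. COL10A1, the chain of hypertrophic cartilage, was listed at 0 throughout. Its whole span lies inside other genes in GENCODE 29, NT5DC1 among them, and the counting rule for overlapping genes is not given in the sources used here. The other 6 rows at 0 are further identifiers of COL11A2 outside that release.

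Per kb of exon, a few chains held most of the level. In CR the highest 5 were COL7A1, at 44.7 and 65.4 CPM per kb, COL5A1, COL4A1, COL6A2 and COL4A2, and in WT they were COL5A1, at 63.2 and 81.5 CPM per kb, COL7A1, COL12A1, COL4A1 and COL6A2. COL7A1 and COL5A1 overlapped in WT, with COL7A1 at 59.4 and 84.3 CPM per kb, and so did COL12A1 and COL4A1, at 65.8 and 71.1 and at 64.5 and 71.2 CPM per kb. COL6A3 was the 13th in CR, at 2.5 and 1.94 CPM per kb, and the 37th in WT, at 0.0263 and 0.0208 CPM per kb. COL12A1 was the 6th in CR and the 3rd in WT. With the longest transcript as the length, COL4A1 and COL4A2 came first in WT, so the order among these abundant chains depends on the length used.

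The genes around the called chains had small median changes. For each of the 28 called chains, the median log2 change of the other tested genes that start within 1 Mb lay between -0.80 and 0.71, and it had the sign of the chain's own change for 16 of them. COL6A3 had 16 such neighbours with a median of -0.03, and its nearest tested protein-coding genes, COPS8 and MLPH, changed by 0.26 and -0.11. COL4A5 had 9 with a median of -0.80, against its own 1.71. Among the called chains, COL1A1 had the most called neighbours on its side, 20 higher and 3 lower of 49 with a median of 0.50, and the adjacent SGCA and TMEM92 changed by 2.98 and 1.84. IRS2 and RAB20, on either side of the COL4A1 and COL4A2 pair, changed by -1.82 and -0.82, while the median over the neighbours of COL4A1 was -0.08.

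RefSeq promoter windows were found for 32 of the 44 symbols, among them 30 tested chains. COL1A1, COL1A2 and COL6A1 were among the chains without a window. Taking the median over the windows of a gene, the 8 called chains higher in CR had a median of 7 CpG per window, between 1 and 38. The 15 chains lower in CR had a median of 29 CpG, between 9.5 and 45, and the 7 chains not called a median of 18, between 1 and 45. Over all tested genes with a window, the medians were 24 CpG for 2649 genes higher in CR, 25 for 2840 genes lower in CR and 24 for 5819 genes not called. Among the chains higher in CR, COL25A1, at 38 CpG, and COL16A1, at 22, lay away from the rest. Among those lower in CR, COL9A1, COL11A2 and COL27A1 had the fewest. This is a description of 30 chains, some of which share windows, and it was not tested.

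**Figure D4:**
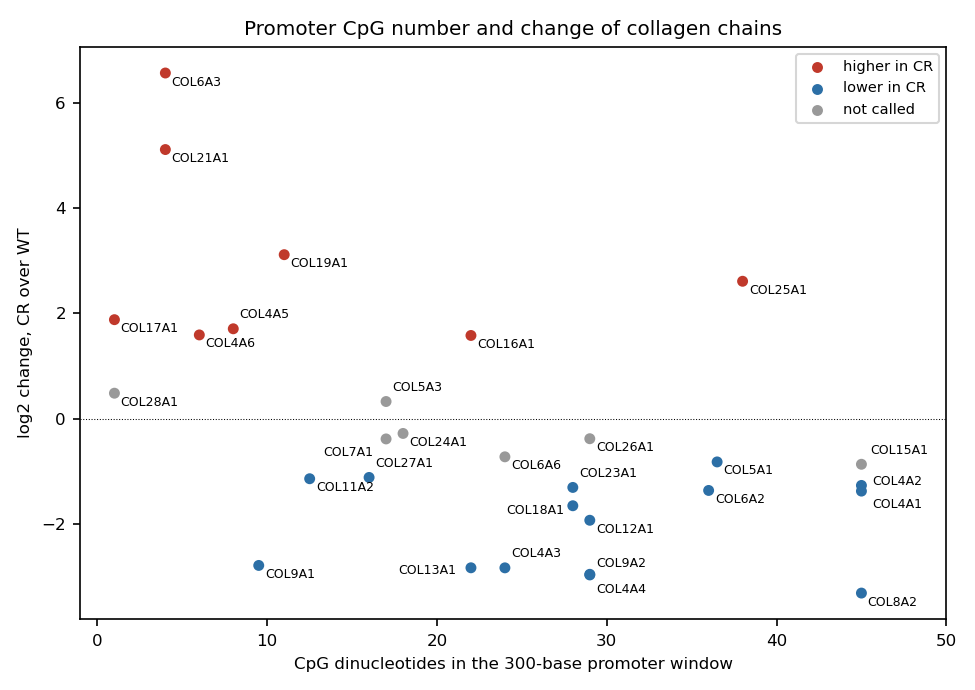
Number of CpG dinucleotides in the RefSeq promoter window of 300 bases (median where a gene has several windows) against the log2 change of the chain, CR over WT, for the 30 tested chains with a window. Most chains higher in CR (red) lie at the left, with COL16A1 and COL25A1 further right, and those lower in CR (blue) spread over the middle and right.

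The genes that handle collagen after its RNA is made were read in the same fit from 7 lists. Of 99 genes tested over all lists, 38 were higher in CR, 25 were lower and 36 did not pass, or 63.6% called against 45.3% of all tested genes. Prolyl and lysyl hydroxylases and their helpers, which modify the chains in the endoplasmic reticulum, mostly did not pass: of 15 tested, 2 were higher, 3 lower and 10 not called, with a median of -0.15. CRTAP, a part of a prolyl hydroxylation complex, had 308 and 288 CPM in CR, against 128 and 130 CPM in WT (1.2 ± 0.11, adjusted p = 6.30e-06), with 54.0% of its exon bases inside other genes. P4HA3, a catalytic subunit of the enzyme that makes hydroxyproline, was higher by 1.47 ± 0.23 on the log2 scale. The catalytic subunit P4HA1 and the shared subunit P4HB were lower in CR, with log2 changes of -0.50 ± 0.13 and -0.53 ± 0.11. P3H3, another prolyl hydroxylase, changed by -0.94 ± 0.15. P4HA1 did not pass without WT replicate 1 (adjusted p = 0.051).

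Chaperones and export factors were mixed, with 5 of 16 higher, 4 lower and 7 not called. SERPINH1, the collagen-specific chaperone HSP47, had 130 and 140 CPM in CR, against 270 and 289 CPM in WT (-1.05 ± 0.11, adjusted p = 2.15e-05). CREB3L1, a membrane-bound transcription factor that activates collagen genes, had 10.3 and 12.4 CPM in CR, against 0.0939 and 0.526 CPM in WT (5.12 ± 0.41, adjusted p = 2.26e-06). SERPINH1 was about as much lower in CR as the summed collagen RNA, while CREB3L1 stood at 4 and 27 counts in WT and its log2 change was 4.44 without WT replicate 1 and 6.90 without WT replicate 2. The prolyl isomerase FKBP9 was higher (1.07 ± 0.12), as was FKBP14 (1.48 ± 0.42), whose exon bases all lie inside another gene. FKBP14 did not pass with limma-voom (adjusted p = 0.0539) or without CR replicate 1 (0.277). SEC31A, of the coat that carries procollagen out of the endoplasmic reticulum, was lower (-0.69 ± 0.11). TANGO6 was lower too (-0.46 ± 0.14), but not without CR replicate 2, WT replicate 1 or WT replicate 2 (adjusted p = 0.0762, 0.115 and 0.0571).

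Propeptide cleavage, which frees secreted chains to assemble, had the highest list median, 1.09, with 6 of 9 genes higher, 2 lower and 1 not called. ADAMTS3, which removes amino-terminal propeptides, had 7.80 and 8.52 CPM in CR, against 2.11 and 1.95 CPM in WT (2.01 ± 0.21, adjusted p = 1.74e-05). Its relative ADAMTS14 had 0.810 and 1.15 CPM in CR, against 18.2 and 22.8 CPM in WT (-4.37 ± 0.23, adjusted p = 8.26e-08). TLL1 and TLL2 are relatives of BMP1, the protease that removes carboxy-terminal propeptides. BMP1 had 190.9 and 221.6 CPM in CR and 159.1 and 194.5 CPM in WT and did not pass the test (0.22 ± 0.13, adjusted p = 0.188). TLL1 changed by 1.91 ± 0.26 and TLL2 by -4.08 ± 0.22, and the enhancer of carboxy-terminal cleavage, PCOLCE2, by 1.89 ± 0.16.

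In cross-linking and fibril assembly, 6 of 15 genes were higher, 7 lower and 2 not called. NID2, which links type IV collagen to laminin in the basement membrane, had 1.83 and 3.38 CPM in CR, against 171 and 188 CPM in WT (-6.09 ± 0.24, adjusted p = 1.04e-08). Its relative NID1 was higher, with 27.4 and 20.9 CPM in CR, against 6.41 and 6.70 CPM in WT (1.88 ± 0.18, adjusted p = 8.11e-06). The lysyl oxidase LOX, which starts cross-links, had 3.54 and 2.02 CPM in CR, against 10.5 and 9.23 CPM in WT (-1.83 ± 0.25, adjusted p = 1.71e-04), with 74.7% of its exon bases inside other genes. LOXL1 and LOXL4 were lower too, with log2 changes of -1.84 ± 0.18 and -3.58 ± 0.29, and 52.2% of the exon bases of LOXL1 lie inside other genes. LOXL3 was not called (0.02 ± 0.35). LOXL2 was only slightly lower, with 335 and 290 CPM in CR, against 368 and 420 CPM in WT (-0.34 ± 0.12, adjusted p = 0.0405). DCN and LUM, small proteoglycans that coat fibrils, went the other way, while BGN and FMOD of the same list had too few reads to be tested. DCN had 31.6 and 21.8 CPM in CR, against 0.0939 and 0.0195 CPM in WT (8.91 ± 0.39), and LUM changed by 2.64 ± 0.28. POSTN, a matrix protein that binds type I collagen, changed by 3.29 ± 0.39, and by 3.92 without WT replicate 2. WT held only 4 and 1 counts of DCN, and its change was 10.3 without WT replicate 1 and 8.13 without WT replicate 2.

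Of 14 collagen receptors, 6 were higher, 1 was lower and 7 were not called. DDR2, a tyrosine kinase that binds fibrillar collagen, had 37.7 and 25.0 CPM in CR, against 18.2 and 11.7 CPM in WT (1.07 ± 0.23, adjusted p = 0.00303). DDR1, its epithelial relative, had 64.9 and 56.0 CPM in CR and 58.9 and 71.8 CPM in WT and did not pass the test (-0.11, 95% interval -0.41 to 0.19). The capillary morphogenesis protein ANTXR2, which takes up type VI collagen, had 68.4 and 51.9 CPM in CR, against 25.6 and 22.6 CPM in WT (1.32 ± 0.15, adjusted p = 4.79e-05), and the type VI binding ANTXR1 changed by 0.76 ± 0.12. ADGRG1, a receptor of type III collagen, had 173 and 159 CPM in CR, against 418 and 462 CPM in WT (-1.41 ± 0.11, adjusted p = 2.72e-06).

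Among 10 collagen-degrading proteases, 4 were higher, 2 lower and 4 not called. MMP2, which cleaves denatured and type IV collagen, had 654 and 637 CPM in CR, against 39.4 and 38.6 CPM in WT (4.05 ± 0.12, adjusted p = 1.85e-09). MMP13 and the membrane-bound MMP16 were higher by 1.92 ± 0.44 and 1.18 ± 0.14 on the log2 scale, and MMP13 by 2.68 without WT replicate 2. The membrane-bound MMP15 and MMP17 were lower, with log2 changes of -1.37 ± 0.14 and -0.99 ± 0.29, and MMP17 did not pass without WT replicate 2 (adjusted p = 0.205). Transcription factors and TGF-beta pathway genes had 10 of 21 higher, 6 lower and 5 not called. SNAI2, a repressor of epithelial genes, had 149.6 and 165 CPM in CR, against 20.4 and 19.8 CPM in WT (2.97 ± 0.12, adjusted p = 1.46e-08), and ZEB2, another such repressor, changed by 1.93 ± 0.21. FLI1, a repressor of COL1A2 in dermal fibroblasts, had 0 and 2 counts in CR and 267 and 309 counts in WT (-8.64 ± 0.49, adjusted p = 1.59e-07). With so few CR counts its size is uncertain, at -7.87 without CR replicate 1 and -11.4 without CR replicate 2. TGFB2 and CEBPB were lower, with log2 changes of -1.54 ± 0.24 and -1.30 ± 0.16. Other TGF-beta pathway genes were mixed. TGFB1, TGFBR1 and TGFBR2 were higher, by 0.61 ± 0.13, 0.75 ± 0.13 and 0.71 ± 0.15, SMAD3 was lower (-0.46 ± 0.11), and SMAD2, SMAD4 and CTGF were not called.

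**Figure D5:**
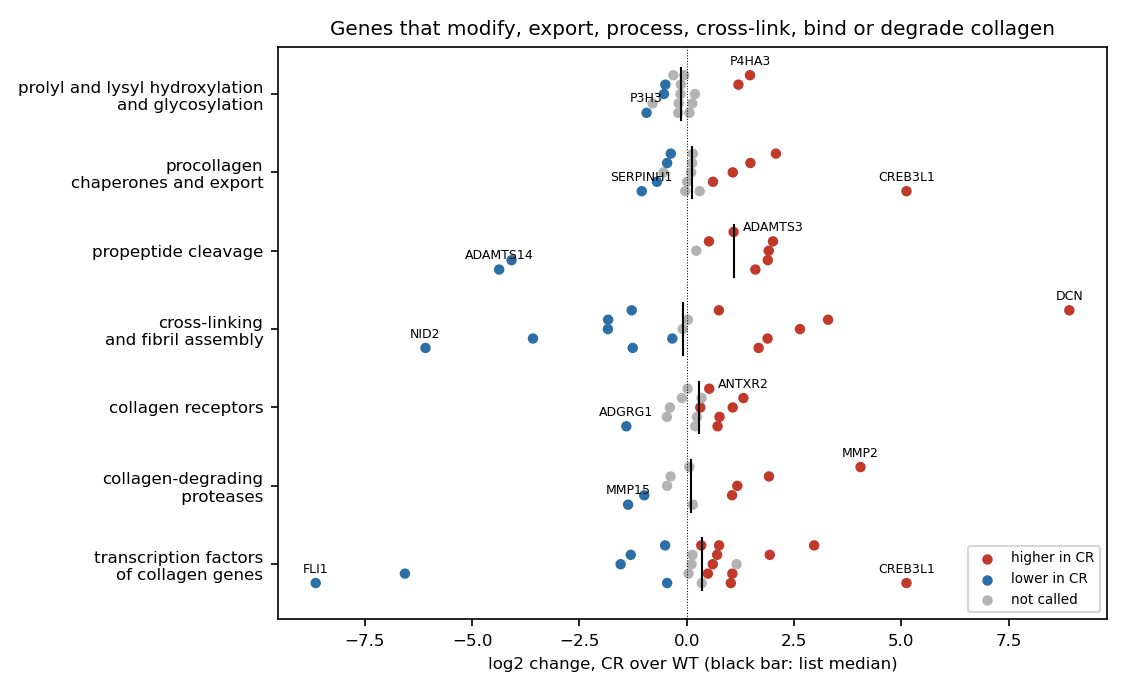
Log2 change, CR over WT, of the tested genes in 7 lists of genes that act on collagen, 1 point per gene, with red for higher in CR, blue for lower in CR and grey for not called, and a black bar at each list's median. Propeptide cleavage has the highest median, at 1.09, and the other medians lie between -0.15 and 0.35.

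Some of the genes above also mark fibroblasts. With collagen chains left out, 7 fibroblast markers summed to 693 and 664 CPM in CR and 41.5 and 40.3 CPM in WT. Most of these sums was MMP2 alone, at 654 and 637 CPM in CR and 39.4 and 38.6 CPM in WT. Of the 5 tested, 3 were higher, MMP2, DCN and LUM. THY1 was at 0 in all libraries, PDGFRA and FAP were under 1 CPM in all libraries, and COL3A1 did not pass 13 counts. Of 6 smooth muscle and pericyte markers tested, 2 were higher and 2 lower, summing to 43.1 and 45.4 CPM in CR and 172 and 178 CPM in WT. TAGLN made up most of these sums, at 23.2 and 27.0 CPM in CR and 142 and 148 CPM in WT. Of 5 endothelial markers tested, 3 were lower, summing to 1.89 and 2.26 CPM in CR and 12.9 and 10.7 CPM in WT, and of 2 leukocyte markers tested none passed, with sums of at most 1.55 CPM. The part of these markers in the collagen changes was not tested.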

How the data were processed

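RNA-seq of polyadenylated RNA from 2 CR and 2 WT libraries was used, prepared with a strand-keeping kit per the labels' protocols. The submitters' processing notes name STAR 2.5.1a, HTSeq, DESeq and the build GRCh38.p7. The annotation, and how strand and overlapping genes were handled, is not given in the sources used here. The deposited counts are whole reads per gene, not normalized. The authors' second table holds a normalized signal, which equals the count divided by 1 factor per library (1.132 and 1.418 in CR, 0.725 and 0.879 in WT) and served only for an alternative.

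The count test was that of edgeR 4.0.16 under R 4.3.3 (quasi-likelihood F test, TMM, filterByExpr with a minimum count of 10 and a minimum total of 15, group as the only term), CR over WT, with Benjamini-Hochberg adjustment over 18602 genes and calls at 0.05. SE is the log2 change divided by the root of F, and intervals are at 95%. The fit was tested on simulated data. DESeq2 1.42.0 and limma 3.58.1 (voom) were alternatives, beside other scalings, other filters, a replicate block, each library left out, other lengths and a wider neighbour window. CPM per kb uses the union of a gene's exons in GENCODE 29, and levels of different genes are compared only on that scale. The labels call the libraries biological replicates without saying what was replicated, so p-values measure the spread between these libraries, and 2 per group limit precision.

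Every chain with reads was named, with values per library for called chains of at least 1 CPM on average in CR or WT. From each list the 3 largest rises and 3 largest falls were named, among called genes with a mean of at least 1 CPM over the 4 libraries. DDR1, DDR2, SERPINH1 and LOX were named in any case. Other called genes of the lists appear only in the counts. Beyond that rule, NID1, BGN, FMOD, LOXL2, LOXL3, BMP1 and further TGF-beta pathway genes were named beside their relatives. The chains and lists were chosen with earlier results of these data known. No enrichment test was run.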

Additional observations from a re-analysis of the deposited data

How the results depend on the processing

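Of the 28 called chains, 24 kept their direction and their call under all alternatives run that could test them, and the exceptions were COL1A1, COL4A3, COL4A6 and COL13A1. Across the alternatives that scale, filter or test differently, 8 to 10 chains were higher and 14 to 19 lower, the fewest when genes under a mean of 1 CPM were left out. With 1 library left out at a time, between 9 and 10 chains were higher and between 17 and 19 lower, over all genes between 3330 and 4022 higher and between 3417 and 4159 lower, and over the lists between 33 and 40 higher and between 20 and 27 lower. Without the chains that have over 50% of their exon bases inside other genes, chosen after seeing the data, 10 were higher and 16 lower.

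Signs turned with 1 library left out for 6 chains that were not called and for DDR1. Their log2 changes lay between -3.50 and 0.21 for COL20A1 (main -0.65), between -1.11 and 0.33 for COL2A1 (main -0.60), between -1.11 and 0.14 for COL26A1 (main -0.38), between -0.71 and 0.054 for COL24A1 (main -0.28), between -1.48 and 0.19 for COL15A1 (main -0.86), between -0.19 and 1.11 for COL28A1 (main 0.48) and between -0.24 and 0.042 for DDR1 (main -0.11). The cause was not tested.

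The summed level of the chains, 232 CPM per kb in CR and 479 in WT, depends on the length by construction. It was 361 in CR and 758 in WT with the longest transcript and 466 in CR and 978 in WT with the coding length. With only exon bases outside other genes, chosen after seeing the data, it was 257 in CR and 555 in WT. Replicates 1 of both groups, and replicates 2, share a number in the labels, which name no shared batch. Their deviations from the group means nevertheless correlated at 0.23 over 14257 genes, and the cause of this was not tested. A replicate block called 11 chains higher and 19 lower, 40 and 27 list genes, and 4767 and 4878 of all genes, and under it COL7A1 (-0.39, adjusted p = 0.00318) and COL8A1 (0.36, adjusted p = 0.0392) passed. In a neighbour window of 5 Mb, 19 of 28 called chains had a neighbour median of their own sign. The 4 chains with reads that could not be tested at this depth had at most 8 counts in any library. Some tested chains, such as COL4A3 and COL13A1, also had under 10 counts in some libraries.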
